A study of Mus with 4 samples.

Results

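Transcripts of 6 genes of the distal lung were examined in RNA-Seq libraries of newborn mouse hearts. The genes were *Sftpc*, *Sftpb*, *Sftpa1*, *Sftpd*, *Aqp5* and *Cbr2*, and each had a row in the deposited table, making 6 of its 55487 gene IDs. They were selected by lung biology and on earlier values of the same 4 libraries, in which some lung transcripts had been seen in a heart library. Their levels are therefore given as a description, and nothing is read from whether they were called in the fit across all IDs. *Cbr2* and *Sftpd* stood more than 10-fold above the other libraries in miR-187 replicate 2, whereas *Sftpb* and *Sftpa1* had values there below the highest of the other libraries. *Sftpc* and *Aqp5* lay between, with small values that were highest in the same library.

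The distal lung consists of alveoli lined by flat type 1 cells, across which gas is exchanged, and by cuboidal type 2 cells, which make surfactant. Surfactant is a film of lipid and protein that lowers surface tension and keeps alveoli open after birth. *Sftpc* and *Sftpb* encode the small hydrophobic surfactant proteins C and B, which spread the lipid film. *Sftpa1* and *Sftpd* encode the collectins SP-A and SP-D, secreted lectins that bind microbes. *Sftpc* is the most restricted of these to type 2 cells, while *Sftpb*, *Sftpa1* and *Sftpd* are also transcribed in secretory cells of the airways, and *Sftpd* in several other epithelia. *Aqp5* encodes the water channel aquaporin 5 of type 1 cells, which salivary, lacrimal and airway glands also carry. *Cbr2* encodes carbonyl reductase 2, an enzyme abundant in mouse lung, where both bronchiolar club cells and type 2 cells contain it, and it is also known from fat tissue.

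The 4 libraries were made from hearts at P0, with 2 labelled WT and 2 labelled miR-187. The study describes its miR-187 mice as a knockin (KI) at *Rosa26* on a C57BL/6J background, in which the *Tek* (*Tie2*) promoter drives exogenous miR-187 in endothelial cells, and its P0 RNA-Seq animals as KI/KI or WT. Zygosity, sex and the number of hearts per library are not in the labels, and the study's methods name cardiac endothelial cells where the labels name heart. The labels name no agent for either group. P-values and spreads refer to these libraries, since nothing states that the 2 libraries of a group came from separate animals. Values are FPKM, which divides the fragments of a gene by its length and by the mapped fragments of its library, a scale on which genes can be compared. Read depth is unknown, so no detection limit can be given. The tables used here pair no names with other IDs, and cardiac, airway and other cell markers were not analysed here. In bulk tissue, a larger number of cells and more RNA per cell cannot be told apart.

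The libraries differed at the low end of expression, where most of the 6 genes lie. The sum of FPKM ranged from 750826 to 807359, the median over all IDs from 0.241 to 0.562 FPKM and the number of IDs above 0 from 44825 to 53180. The fewest IDs above 0 were found in miR-187 replicate 2. The highest median was that of WT replicate 1, at 0.562 FPKM, against 0.261 FPKM in miR-187 replicate 2. An FPKM between these medians was thus typical of an ID in these libraries.

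The hydrophobic surfactant proteins were examined first. *Sftpc* (ENSMUSG00000022097, chromosome 14, 70520941 to 70524081 in GRCm38.p6) had 0.280 and 0.258 FPKM in WT replicates 1 and 2. Its level was 0.421 FPKM in miR-187 replicate 1 and 1.16 FPKM in replicate 2, so that the groups did not overlap. The highest value was 2.74 times the next, and the mean was 0.269 ± 0.0157 FPKM for WT against 0.788 ± 0.519 FPKM for miR-187 (SD, n = 2 per group). The type 2 gene with the narrowest known expression was thus above the other libraries in miR-187 replicate 2, at a level near 1 FPKM.

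*Sftpb* (ENSMUSG00000056370, chromosome 6, 72304610 to 72314373) showed no such pattern. Replicates 1 and 2 of WT gave 0.384 and 0.285 FPKM, and those of miR-187 gave 0.352 and 0.371 FPKM. WT replicate 1 was highest, the groups overlapped, and the group means of 0.334 ± 0.0704 and 0.361 ± 0.0137 FPKM (SD, n = 2 each) lay within the spread of WT.

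The collectins, neighbours on chromosome 14, differed from each other. *Sftpd* (ENSMUSG00000021795, 41172212 to 41185198) stood at 0.260 and 0.231 FPKM in the first and second WT library. It was at 0.340 FPKM in miR-187 replicate 1 but at 5.60 FPKM in replicate 2. The last value was 16.5 times the next highest, while the other 3 libraries lay within 1.47-fold of each other. The miR-187 mean of 2.97 ± 3.72 FPKM (SD, n = 2) had a spread larger than the mean, against 0.246 ± 0.0204 FPKM for WT (SD, n = 2).

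*Sftpa1* (ENSMUSG00000021789, 41131788 to 41136373) gave 0.408 and 0.253 FPKM for the WT hearts, against 0.449 and 0.220 FPKM for the miR-187 hearts. Its lowest value was that of miR-187 replicate 2, the library in which *Sftpd* was highest. The genes are 35838 bases apart, with *Mbl1*, which encodes another collectin, and the pseudogene *Gm7920* between them in RefSeq. The ratio of *Sftpd* to *Sftpa1* was 25.5 in miR-187 replicate 2 and 0.637 to 0.912 in the other libraries. SP-A and SP-D transcripts did not rise together in that library.

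*Aqp5* (ENSMUSG00000044217, chromosome 15, 99591028 to 99594829), the water channel, gave 0.704 and 0.354 FPKM for the WT hearts, against 0.772 and 1.25 FPKM for the miR-187 hearts. The miR-187 libraries were above the WT libraries, but miR-187 replicate 1 exceeded WT replicate 1 by little. The other 3 libraries spanned 2.18-fold, more than the 1.62-fold step from the highest of them to miR-187 replicate 2. Mean levels were 0.529 ± 0.248 FPKM for WT and 1.01 ± 0.338 FPKM for miR-187 (SD, n = 2 per group).

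*Cbr2* (ENSMUSG00000025150, chromosome 11, 120729485 to 120732025) was the most abundant of the 6 in each library. WT replicate 1 gave 4.18 FPKM and replicate 2 gave 11.7 FPKM. The miR-187 libraries gave 3.36 FPKM for replicate 1 and 153 FPKM for replicate 2. Replicate 2 was 13.1 times the next highest library and 45.7 times the lowest. The groups nevertheless overlapped, because miR-187 replicate 1 was the lowest of all. Mean levels were 7.92 ± 5.30 FPKM for WT and 78.3 ± 106 FPKM for miR-187 (SD, n = 2 per group). *Cbr2* was also the gene that varied most among the other 3 libraries, over a 3.47-fold range, with WT replicate 2 above the rest.

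**Figure D1:**
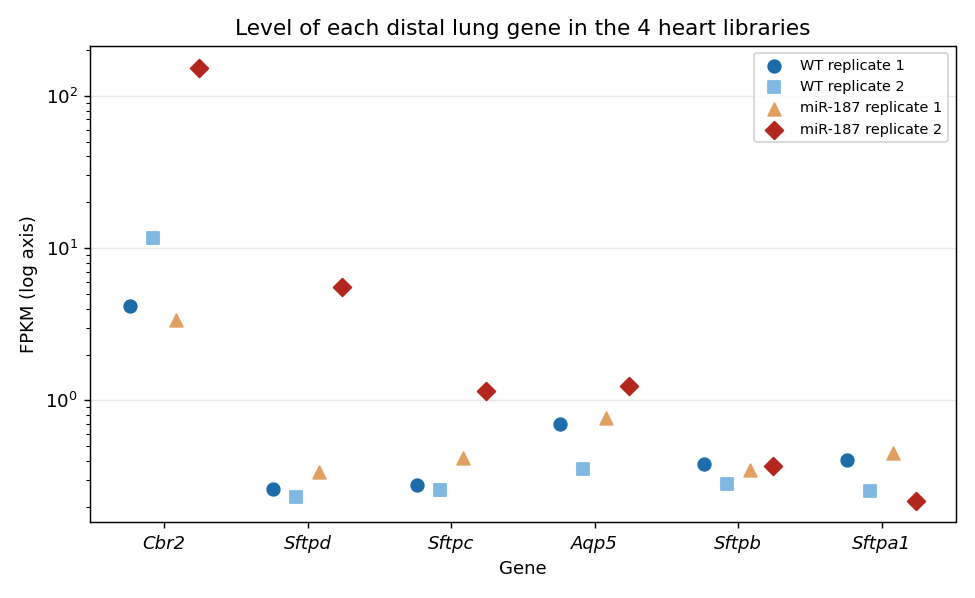
FPKM on a log axis of the 6 genes in the 4 heart libraries, 1 symbol per library. *Cbr2* (153 FPKM) and *Sftpd* (5.60 FPKM) stand above the other libraries in miR-187 replicate 2, whereas *Sftpb* and *Sftpa1* stay below 0.5 FPKM in all of them.

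The order of the genes by FPKM changed with the library. In WT and in miR-187 replicate 1 it began with *Cbr2* and *Aqp5*, and *Sftpd* was the lowest of the 6 in each of these 3 libraries. Below *Aqp5*, the 4 surfactant protein genes lay between 0.231 and 0.449 FPKM in these libraries, and their order was not the same in any pair of them. In miR-187 replicate 2 *Sftpd* was the second highest, followed by *Aqp5*, *Sftpc*, *Sftpb* and *Sftpa1*. *Aqp5* and *Sftpc*, neighbours in this order at 1.25 and 1.16 FPKM, differed by less than either differed between the miR-187 libraries.

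The sum over the 4 surfactant protein genes was 1.33 and 1.03 FPKM in WT, 1.56 FPKM in miR-187 replicate 1 and 7.34 FPKM in miR-187 replicate 2. Most of the last sum was *Sftpd*. *Cbr2* alone made up 94.7% of the summed FPKM of the 6 genes in miR-187 replicate 2, against 59.0% to 89.4% in the other libraries. Its ratio to *Sftpc* was 133 in miR-187 replicate 2, 14.9 and 45.2 in WT and 7.97 in miR-187 replicate 1. Its ratio to *Sftpd*, at 27.4, lay inside the range of the other libraries, from 9.88 to 50.5. All 6 together took 0.0204% of the FPKM sum of miR-187 replicate 2.

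Because the low end differed between libraries, each gene was also placed among all IDs of its own library. In miR-187 replicate 2 *Cbr2* was at percentile 99.3, with rank 378 from the top, and it was at percentile 85.2 to 93.7 elsewhere. *Sftpd* was at percentile 90.4 in that library but did not exceed 48.7 in any other, with its lowest place, 22.5, in WT replicate 1. *Sftpc* was at percentile 24.4 in WT replicate 1, at 52.1 and 51.6 in WT replicate 2 and miR-187 replicate 1, and at 77.3 in miR-187 replicate 2. On this scale, which does not depend on the FPKM sum, each gene except *Sftpa1* was highest in miR-187 replicate 2, *Sftpb* by a small margin. The scale still depends on the low end of each library. *Sftpb* was at percentile 58.5 with 0.371 FPKM there, but at 35.1 with 0.384 FPKM in WT replicate 1. Nothing is read from how many of the genes were highest there, since they were chosen with these values known.

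*Aqp5* had percentiles of 58.8 and 60.6 in WT, 68.5 in miR-187 replicate 1 and 78.2 in miR-187 replicate 2. *Sftpb* was at percentile 58.5 in miR-187 replicate 2 and 55.0 in WT replicate 2, close to each other, and at 35.1 and 45.3 in the replicate 1 libraries. *Sftpa1* was at percentile 46.0 in miR-187 replicate 2, inside the range of 37.4 to 53.8 in the other libraries. *Sftpb* and *Sftpa1* therefore lay near the median ID of the heart libraries, and at this level an FPKM does not show whether the gene was transcribed. The same limit holds for *Sftpc* and *Sftpd* outside miR-187 replicate 2, at percentiles from 22.5 to 52.1. It thus also holds for the lower value in each of their fold excesses.

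**Figure D2:**
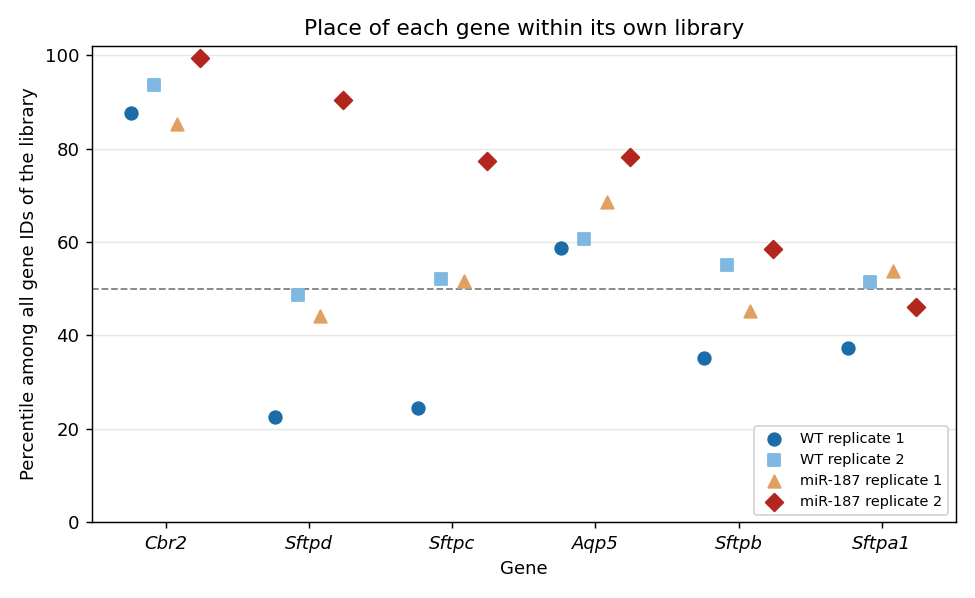
Percentile of each gene among all 55487 IDs of the same library, 1 symbol per library, with the dashed line at the median ID. In miR-187 replicate 2 *Cbr2* is at 99.3 and *Sftpd* at 90.4, while *Sftpa1* is at 46.0.

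Other IDs stood out in single libraries too. Those that reached 1 FPKM in miR-187 replicate 2 with 10 times or more the highest FPKM elsewhere numbered 26 of 55487, which is 0.0469%. *Sftpd* and *Cbr2* were 2 of these, and since the genes were chosen with such values known, nothing is read from their share. By the same measure WT replicate 1 had 25, miR-187 replicate 1 had 10 and WT replicate 2 had 7, with none of the 6 genes among them. By size, however, the libraries differed, since the median value of these IDs was 17.9 FPKM in miR-187 replicate 2 and 32.3 FPKM in WT replicate 2, but 1.29 and 1.39 FPKM in the replicate 1 libraries. *Cbr2* ranked 7th and *Sftpd* 21st among the 26, whose highest value was 3297 FPKM. The source of these transcripts in the library was not tested.

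The excess in miR-187 replicate 2 was also set beside that of IDs of like level. Among 19634 IDs whose highest value in the other 3 libraries was from 0.1 to below 0.5 FPKM, the median ratio of miR-187 replicate 2 to that highest value was 0.299, and the ratio was above 1 in 11.3%. The same ratio, each library over the highest of the other 3, had a median of 0.350 for WT replicate 2, 0.722 for miR-187 replicate 1 and 1.31 for WT replicate 1. The 4 surfactant protein genes belong to this level, with ratios of 16.5 for *Sftpd*, 2.74 for *Sftpc*, 0.966 for *Sftpb* and 0.490 for *Sftpa1*. The ratio exceeded by 1% of these IDs was 2.71. *Aqp5*, at 1.62, belongs to the level from 0.5 to below 1 FPKM, with a median of 0.366, and it was below the ratio of 1.85 exceeded by 1% of IDs there. *Cbr2*, at 13.1, belongs to the level from 10 to below 100 FPKM, with a median of 0.738 and 1% of IDs above 1.85. *Sftpb* and *Sftpa1*, with ratios below 1, were not at their highest in that library. Because the genes were chosen with the values of miR-187 replicate 2 known, nothing is read from where their ratios lie among these IDs.

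**Figure D3:**
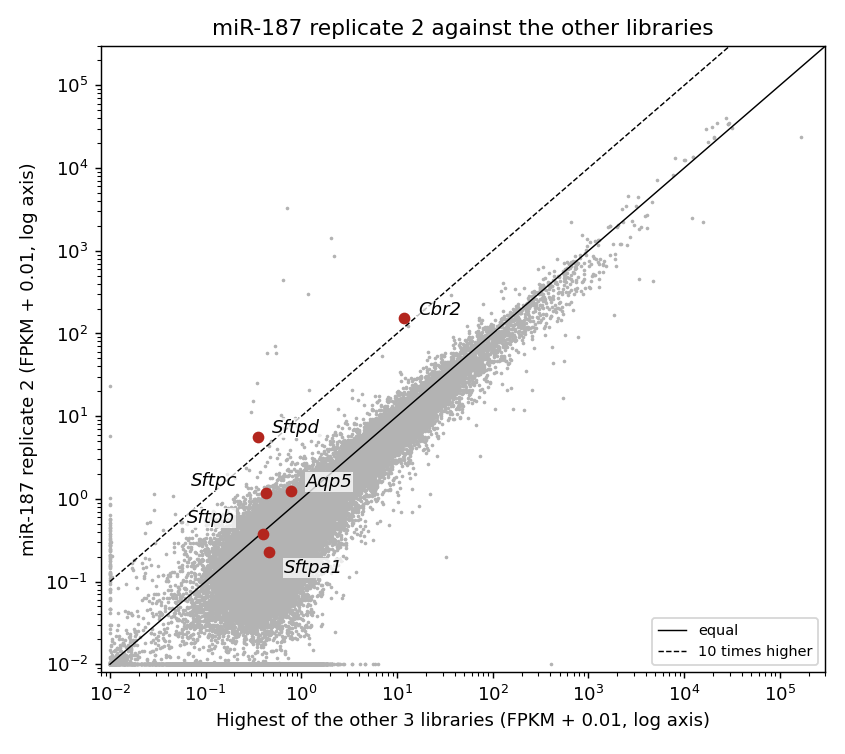
FPKM of each ID in miR-187 replicate 2 against its highest FPKM in the other 3 libraries, both plus 0.01 on log axes, with the 6 genes in red. *Cbr2* and *Sftpd* lie above the dashed line of a 10-fold excess, *Sftpc* and *Aqp5* between the lines, and *Sftpb* and *Sftpa1* below the solid line of equality.

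The design asks how miR-187 changes the heart transcriptome, so the groups were set against each other on the log2(FPKM + 1) scale, which understates changes of low genes. The difference, miR-187 minus WT, was 1.68 ± 1.75 for *Cbr2* and 1.26 ± 0.79 for *Sftpd* (± SE from a limma fit to all IDs, n = 2 each). It was 0.46 ± 0.32 for *Sftpc* and 0.39 ± 0.30 for *Aqp5*. For *Sftpb* it was 0.03 ± 0.22, and for *Sftpa1* it was 0.00081 ± 0.23. The fit restricted to IDs averaging 1 FPKM or more, which held *Cbr2* and *Sftpd* of the 6 genes, gave smaller SEs of 0.89 and 0.50 for these.

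The differences of *Cbr2* and *Sftpd* rested on 1 library. Between the replicate 2 libraries it was 3.61 for *Cbr2*, 2.42 for *Sftpd*, 0.78 for *Sftpc* and 0.73 for *Aqp5*. Between the replicate 1 libraries the same genes gave -0.25, 0.09, 0.15 and 0.06. Within the miR-187 group, replicate 2 exceeded replicate 1 by 5.15 for *Cbr2* and by 2.30 for *Sftpd*, more than their group differences. Without miR-187 replicate 2, the group difference of *Cbr2* turned to -0.89, and those of *Sftpd* and *Sftpc* were 0.11 and 0.16. That of *Aqp5* was 0.22 without this library and 0.23 without WT replicate 2, against 0.39 with all libraries.

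**Figure D4:**
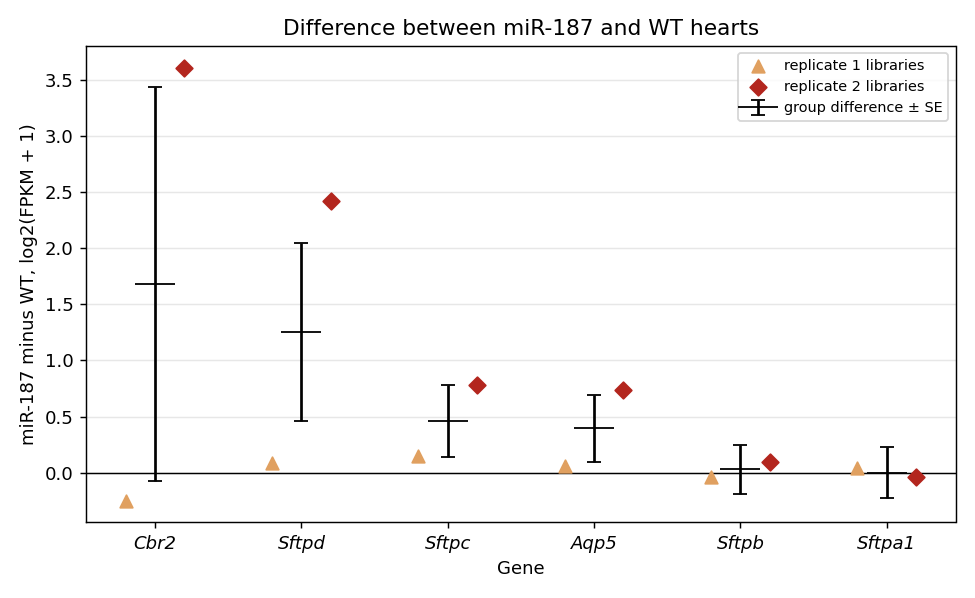
Difference between miR-187 and WT on the log2(FPKM + 1) scale for each gene, as the group difference with its SE (black) and between libraries of the same replicate number (triangles for 1, diamonds for 2). For *Cbr2* the replicate 2 libraries differ by 3.61 and the replicate 1 libraries by -0.25.

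The lower miR-187 value exceeded the higher WT value for *Sftpc*, *Sftpd* and *Aqp5*, 3 of the 6 genes, and for 7.69% of the 54560 IDs above 0 in some library. The opposite order was found for 0 of the 6, against 13% of these IDs. With miR-187 replicate 2 left out, the remaining miR-187 library was above both WT libraries for 4 of the 6, *Sftpa1* joining them, against 29.4% of IDs. The median difference was 0.43 over the 6 genes and -0.05 over all these IDs. As the genes were chosen with these values known, nothing is read from the counts or the median.

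Of the 6 genes only *Sftpd* and *Cbr2* had a mean of at least 1 FPKM and so entered the test of 14325 IDs, *Sftpd* through the value of miR-187 replicate 2 alone, and *Cbr2* also without it, at a mean of 6.40 FPKM over the other 3 libraries. Of these 2, 0 were called in either direction at an adjusted p under 0.05 (limma). Over all tested IDs, 0% were called higher and 0.00698% lower, while 189 were higher and 258 lower at an unadjusted p under 0.05.

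IDs with the most similar pattern were sought among 14323 others with a mean of at least 1 FPKM. Likeness was the Euclidean distance over the 4 libraries from the median centred log2(FPKM + 1) profile of the 4 genes that reached 1 FPKM in some library, *Sftpc*, *Sftpd*, *Aqp5* and *Cbr2*. Apart from *Cbr2*, these reached 1 FPKM in miR-187 replicate 2 alone, so the choice fixed the maximum of the profile, and of the IDs nearest to it, in that library. The 8 closest were at distances of 0.109 to 0.233. The closest was ENSMUSG00000020232.17, at 4.35 and 4.40 FPKM for WT against 4.54 and 13.8 FPKM for miR-187. The next was ENSMUSG00000114784.1, at 0.751 and 1.00 FPKM for WT against 1.05 and 4.18 FPKM for miR-187. The tables used here do not pair these IDs with names. The 4 genes were themselves farther from their median profile, from 0.694 for *Sftpc* to 2.88 for *Cbr2*, since the sizes of their excess in that library were unequal.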

How the data were processed

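The authors deposited FPKM values for 55487 Ensembl gene IDs in 4 libraries. The submitters' processing notes name HISAT2, StringTie, DESeq2 and mm10, without versions or roles; annotation and strand use are not given in the sources used here. As the deposited values are FPKM, counts were not recovered and no count test was made. The genes and marker lists were chosen with earlier results of these data known. Names of the 6 IDs came with their selection, since a RefSeq table (GRCm38.p6, 49997 rows) holds 0 Ensembl IDs. Positions were matched to it by symbol for 6 of 6. The 17 other marker lists could not be matched to IDs and were not analysed here. Sequences were not used here.

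Groups and replicate numbers came from sample titles. The log2(FPKM + 1) values of IDs averaging 1 FPKM or more went into limma 3.58.1 under R 4.3.3 (trended eBayes, no block, two-sided, Benjamini-Hochberg, threshold 0.05), after the procedure had been tested on simulated data. For SEs of all 6 genes the fit was repeated without the filter. The rule for naming took all 6 genes and the 8 IDs closest to the median profile of those that reached 1 FPKM in a library (4 of the 6), of which 2 are given by ID because none could be paired with a name. Alternatives were a pseudocount of 0.1, other filters and scalings, untrended eBayes, the replicate number as a block, and leaving out each library. Plots used matplotlib 3.10.9 (Python 3.11.15).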

Additional observations from a re-analysis of the deposited data

How the results depend on the processing

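Precision rests on 2 libraries per group, as depth is unknown. Of 24 values for the differences of the 6 genes under another pseudocount or scaling, 21 moved by less than 1 SD between replicates. The 3 that moved more were those of *Sftpc*, *Sftpb* and *Aqp5* when 0.1 was added in place of 1, which stretches the log scale at low levels. The 24 values with 1 library omitted cannot move by more than that SD when a group has 2 libraries, so they say nothing of stability. They ran from -0.89 to 4.25 for *Cbr2* and from 0.11 to 2.40 for *Sftpd*. Over all 48 values, 6 were below 0 (4 of *Sftpa1*, 1 of *Sftpb* and 1 of *Cbr2*). The median over the 6 genes, 0.429, became 0.989 with that pseudocount. With 1 library omitted it was lowest, 0.115, when miR-187 replicate 2 was left out and highest, 0.665, when miR-187 replicate 1 was.

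The counts of 0 higher and 1 lower ID were 31 and 15 of 49380 tested IDs with a minimum mean of 0.1 FPKM. That fit held all 6 genes, of which it called 1, *Cbr2*, higher. With the replicate block the counts were 33 and 18 of 14325 tested IDs. That fit held 2 of the genes and called 1, *Sftpd*, higher. Quantile normalization and the fit to unfiltered IDs each gave 0 lower. The cause was not tested. With 1 library omitted, where the lone library of an arm is assumed to vary like the other group, the higher IDs numbered 11 when miR-187 replicate 2 was left out and up to 62 when miR-187 replicate 1 was, and the lower IDs 14 when miR-187 replicate 2 and 56 when WT replicate 1 was left out. The log2 difference of *Cbr2* was 2.32 without WT replicate 2. Without miR-187 replicate 1 it was 4.25, and that of *Sftpd* was 2.4. In the latter fit miR-187 replicate 2, whose high values were known at selection, is the whole miR-187 group, so nothing is read from these differences. Apart from the 0.1 FPKM minimum and the replicate block, no fit to all 4 libraries called either gene. Across tested IDs, the replicate 1 libraries deviated from their groups with r = -0.0675 between WT and miR-187, and the labels tie the numbers to no litter or batch, so the block was not treated as a pairing. Alternatives planned for other lung genes were not run, because their IDs could not be matched.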
